A study of Mus musculus with 5 samples.

Results

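The B and T lymphocytes described here were droplet barcodes that held a B-cell or T-cell receptor transcript together with many platelet transcripts. A barcode counted as a carrier when it had at least 200 detected genes and under 10% mitochondrial counts, at least 1 count of Cd79a or of Cd3e but not of both, and at least 10 counts summed over Pf4, Ppbp, Gp9, Clec1b and Tubb1. A count is a unique molecular identifier (UMI), 1 captured transcript. Cd79a, a signalling chain of the B-cell receptor, defined the B gate, and Cd3e, a signalling chain of the T-cell receptor complex, defined the T gate. Of 66,693 barcodes in the series, 62,028 passed the filters, 43,035 lay in the B or the T gate, and 2299 were carriers, 1579 in the B gate and 720 in the T gate. They were set against the barcodes of the same gate and library with a platelet sum of 0, which numbered 12,043 in the B gate and 7120 in the T gate. The members were thus chosen by measured platelet counts, and the 7 genes of the rule are described without a test.

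Blood mononuclear cells of C57BL/6N mice had been frozen, thawed and captured in droplets (10x Genomics 3' chemistry), in a mouse model of HFpEF, heart failure in which the pumped fraction is preserved. Control mice ate regular chow (2 libraries). The regimen called HFD + L-NAME was 15 weeks of high-fat diet plus L-NAME, which inhibits the endothelial nitric oxide synthase (2 libraries). A further library came from mice on this regimen that were given nitro-oleic acid (NO2-OA) over its last 4 weeks, and it is called the NO2-OA library. Neither the age nor the sex of the mice is stated in the labels used here, nor whether each library came from a separate mouse, so p-values measure only the spread between these libraries. Per the labels, blood was drawn into EDTA, plasma was taken off after a spin, and the cells were collected over Ficoll. Totals ran from 71,216,133 to 122,022,000 UMIs a library, with medians of 5949 to 7315 UMIs a barcode after filtering. Pairs of libraries shared 28 to 77 barcode sequences, at most 0.613% of the smaller library. Scrublet scored the barcodes, and those with the highest scores in each library were marked as doublets. The marked share, 6.54% to 14.4%, was set in advance from the number of barcodes in the library. Marked barcodes were kept here and left out in an alternative.

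Platelets are small fragments of megakaryocytes without a nucleus, which keep RNA made by the parent cell and circulate in great number. Activated platelets move P-selectin from their granules to the surface and bind leukocytes that carry its ligand PSGL-1, so that platelet and leukocyte aggregates occur in blood. In droplet sequencing, a barcode collects the RNA of whatever enters the droplet, an aggregate, separate particles or free RNA. Pf4 and Ppbp encode chemokines of the alpha granules, Gp9 a subunit of the receptor for von Willebrand factor, Clec1b the receptor CLEC-2 for podoplanin, and Tubb1 the beta-tubulin of the platelet's marginal band.

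The start regions of Pf4 and Ppbp are shown because these 2 genes gave most of the counts that chose the members. Both lie on the plus strand of chromosome 5, and the 250 bases before each annotated start are given as RefSeq has them for GRCm38.p6, an older build than the mm39 named for the count tables. Capitals mark a match to GGAAGT, an Ets-type motif searched on both strands, which reads ACTTCC where the match is on the minus strand.
Pf4, chr5:90772185-90772434: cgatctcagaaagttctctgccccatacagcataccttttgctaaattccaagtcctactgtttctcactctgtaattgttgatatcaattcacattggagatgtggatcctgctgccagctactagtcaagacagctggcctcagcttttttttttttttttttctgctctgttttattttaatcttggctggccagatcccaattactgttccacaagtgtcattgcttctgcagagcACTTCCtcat
Ppbp, chr5:90768268-90768517: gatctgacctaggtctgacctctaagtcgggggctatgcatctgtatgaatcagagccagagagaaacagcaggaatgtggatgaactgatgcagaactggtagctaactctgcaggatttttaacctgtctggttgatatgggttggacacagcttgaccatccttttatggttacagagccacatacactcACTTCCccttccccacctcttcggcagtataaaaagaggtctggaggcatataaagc
The window of Gp9 held GGAAGT as well, and those of Clec1b and Tubb1 did not. The GATA-type motifs AGATAA and TGATAA, also searched on both strands, were met once, as TGATAA in the window of Clec1b. GGAAGT was present in 19.7% of all 32,851 windows of this length, and AGATAA or TGATAA in 16.6%.

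Platelet counts in lymphocyte barcodes ran on across the threshold. Of the B-gate carriers, 934 had a sum of 10 to 19, 352 had 20 to 49, 139 had 50 to 99 and 154 had 100 or more, up to 575. For T-gate carriers these numbers were 447, 131, 48 and 94, up to 755. Just outside the threshold, 654 B-gate barcodes had a sum of 8 or 9, and 50.9% of them held Itga2b, the platelet integrin alpha-IIb, which the rule did not use. Just inside, 362 had a sum of 10 or 11, and 55.5% held Itga2b. For the T gate these shares were 53.1% of 294 barcodes outside and 64.1% of 184 inside.

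Barcodes with larger platelet sums were also deeper. The median total rose from 5898 UMIs at a sum of 0 to 6280 at 10 to 19, 7416 at 20 to 49, 7619 at 50 to 99 and 11,639 at 100 or more in the B gate. The T-gate median went from 6906 UMIs at a sum of 0 to 7625, 8577, 9183 and 12,103. Barcodes marked as doublets by their scrublet score made up 7.53% of the B gate at a sum of 0, and 14.5%, 41.5%, 60.4% and 61.0% along the same steps. The marked share of the T gate was 7.04% at a sum of 0, and then 13.2%, 38.2%, 81.3% and 75.5%. Over all libraries the median barcode held 19 further B-cell genes at a sum of 0 and 17 at 100 or more, and 16 and 15 further T-cell genes in the T gate. In 2 libraries the B-cell genes were fewer at high sums. The second chow library had a median of 5 at 50 to 99 and 5.5 at 100 or more, and the second HFD + L-NAME library 6 and 11.5. Macrophage-gene barcodes, described below, made up 10 of 17 and 10 of 14 of these in the second chow library. In the second HFD + L-NAME library they were 12 of 51 and 18 of 24. Macrophage-gene carriers had a median of 5 and 6 B-cell genes in the 2 libraries, and the other B-gate carriers 20 in both. These medians cover all platelet sums of 10 or more. In the second HFD + L-NAME library, 39 of 303 other carriers (12.9%) and 5 of 38 macrophage-gene carriers (13.2%) had under 3 of the B-cell genes. Over all libraries, 74 of 1510 other carriers and 7 of 69 macrophage-gene carriers had under 3 of them. The share of B-gate barcodes with under 3 of these genes was 0.739% at a sum of 0, 15.8% at 50 to 99 and 13.6% at 100 or more.

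The 5 platelet genes stood in similar proportion in both gates and in platelet barcodes without a lymphocyte. The latter, called platelets alone, were 2970 barcodes with no count of Cd79a, Cd79b, Ms4a1, Cd3d, Cd3e or Cd3g, a platelet sum of at least 10 and at least 2% of their UMIs in the 5 genes, a class added after the data were seen. The class first planned had no limit of 2% but also required no count of Lyz2 or Nkg7, and held 264 barcodes. The rule of platelets alone thus does not exclude barcodes that also hold transcripts of monocytes, neutrophils or natural killer cells. Without the macrophage-gene barcodes described below, Pf4 gave 49.3% of the platelet sum in B-gate carriers, 50.2% in T-gate carriers and 52.1% in platelets alone. Ppbp gave 26.5%, 27.2% and 24.3%, Clec1b 12.4%, 11.6% and 11.9%, and Gp9 9.73%, 9.34% and 10.1% in the same order.

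Platelet genes outside the rule were set against the 5 genes in the same way. Carriers with a sum of 50 or more, without macrophage genes, were used. Some libraries had few of them, with 11 in the B gate and 6 in the T gate of the second chow library. The NO2-OA library had 9 and 7, and the first chow library 98 and 81. The counts of these carriers above those of the sum-0 barcodes were taken per 100 counts of the 5 genes, as a median over libraries. For Cd9, a tetraspanin of the platelet surface, this was 49.3 in the B gate, 50.2 in the T gate and 49.8 in platelets alone. Ctla2a, a cysteine protease inhibitor gene, gave 123, 103 and 121, and Nrgn, a calmodulin-binding protein found in platelets, gave 46.6, 41.0 and 45.9. Thbs1, the granule protein thrombospondin, gave 9.23, 8.08 and 6.70, and Itga6, the laminin-binding integrin alpha-6, gave 6.55, 6.66 and 4.68. For each of these genes the range over libraries overlapped between carriers and platelets alone. Some other genes lay above platelets alone without overlap. Mylk, myosin light chain kinase, gave 2.32 to 3.81 in the B gate and 2.15 to 3.22 in the T gate against 1.70 to 1.87 in platelets alone, and Plek, pleckstrin, 12.8 to 15.4 and 12.3 to 18.1 against 10.3 to 12. In the B gate this also held for Alox12, the platelet 12-lipoxygenase (5.81 to 9.48 against 5.32 to 5.79), and Cavin2, a caveolar coat protein (3.43 to 4.51 against 2.48 to 3.14). Cd36, Tbxa2r and Jam3 were near 0 in all 3 kinds of barcode, and no test was made of these ratios.

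**Figure D1:**
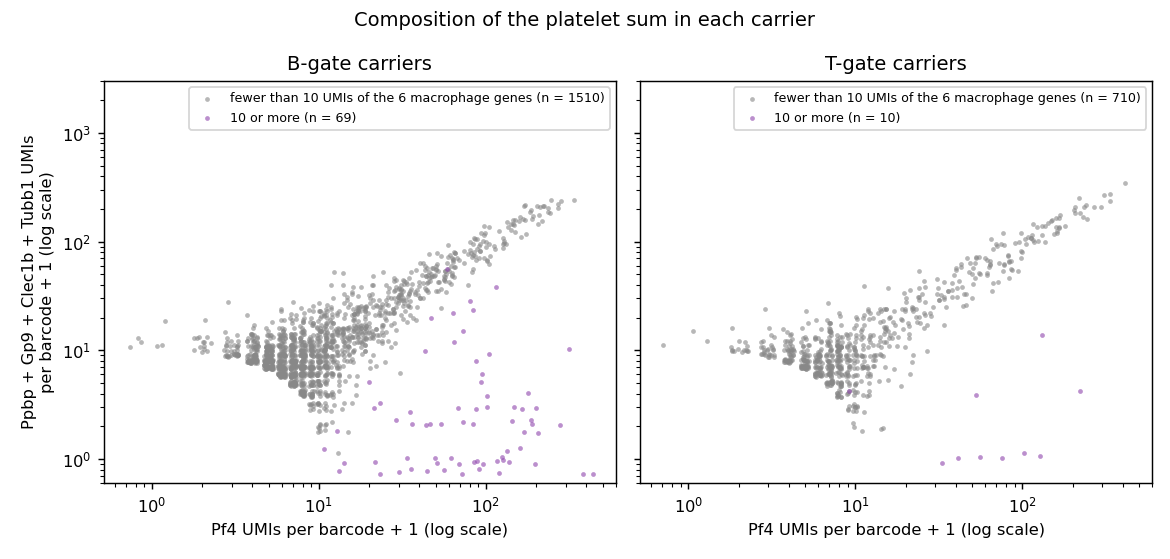
Each point is a carrier, with its Pf4 UMIs plus 1 on the horizontal axis and the summed UMIs of Ppbp, Gp9, Clec1b and Tubb1 plus 1 on the vertical axis, both on a log scale and slightly jittered. Most carriers follow 1 band in which both values rise together, and the macrophage-gene carriers lie below it with high Pf4 and few counts of the other 4 genes.

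A small set of carriers had another proportion. Of the B-gate carriers, 69 held at least 10 UMIs of C1qa, C1qb, C1qc, Prg4, Timd4 and Gata6, genes that together mark resident macrophages of the body cavities, and so did 10 of the T-gate carriers. All of them lay in the second chow library (31 in the B gate and 6 in the T gate) and the second HFD + L-NAME library (38 and 4). No sum-0 barcode of either gate held this many counts of the 6 genes. Pf4 gave 95.9% of the platelet sum in the B-gate set and 97.5% in the T-gate set, and 29 of the 69 and 6 of the 10 had no count of the other 4 platelet genes. Their median total was 31,110 UMIs in the B gate and 32,932 in the T gate. Outside the gates, 91 barcodes of the second chow library and 275 of the second HFD + L-NAME library also had at least 10 counts of the 6 genes. Although few, these carriers held 31.2% and 33.7% of all UMIs of the B-gate carriers in those 2 libraries. Gene counts and most values below are therefore given with and without them, and the choice to leave them out was made after the data were seen.

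Carriers made up a similar share of B and T lymphocytes within each library, and the share ran widely between libraries. Among B-gate barcodes they were 7.44% (513 of 6896) and 4.98% (287 of 5764) for chow, 6.20% (409 of 6597) and 10.2% (341 of 3336) for HFD + L-NAME, and 0.530% (29 of 5474) for NO2-OA. Exact 95% binomial intervals, which cover counting error only, ran from 6.83% to 8.08% in the first chow library and from 0.355% to 0.760% in the NO2-OA library. T-gate shares were 8.27% (383 of 4630) and 4.01% (104 of 2591), then 5.69% (136 of 2392) and 8.89% (67 of 754), and 0.652% (30 of 4601). Without the macrophage-gene barcodes, the second chow library had 4.47% in the B gate and 3.80% in the T gate, and the second HFD + L-NAME library 9.21% and 8.40%. The NO2-OA library lay below every other library in both gates, and the chow and HFD + L-NAME libraries overlapped. Median depth was 5689 UMIs in the B gate and 6546 UMIs in the T gate of the NO2-OA library, beside 5524 to 8148 and 6778 to 9642 UMIs in the other libraries.

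Barcodes without any platelet count varied between libraries too. They were 18.4% and 35.8% of the B gate for chow, 33.2% and 49.2% for HFD + L-NAME and 89.1% for NO2-OA. T-gate shares were 19.05% and 38.2%, 32.5% and 49.2%, and 89.1%. Platelets alone were fewest in the NO2-OA library, with 91 of its 14,484 barcodes, against 631 of 17,255 and 228 of 10,685 for chow and 508 of 11,917 and 1512 of 7687 for HFD + L-NAME. The part of free platelet RNA and of platelet number in the shares was not tested. Carriers with a sum of 50 or more, macrophage-gene barcodes left out, were 1.42% and 0.192% of the B gate for chow, 1.21% and 1.37% for HFD + L-NAME, and 0.164% for NO2-OA. With this threshold the second chow library lay near the NO2-OA library.

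**Figure D2:**
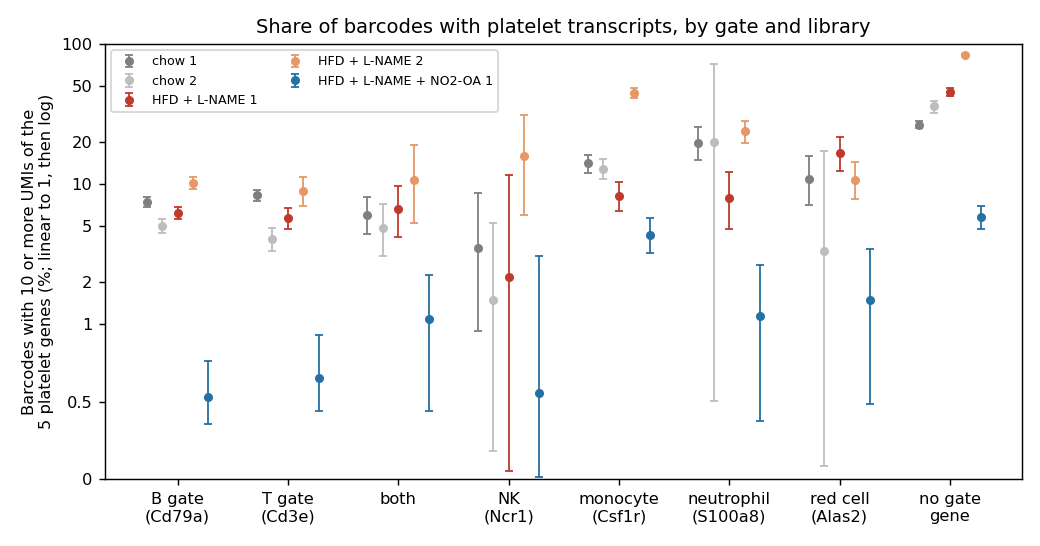
Points give the share of barcodes with a platelet sum of 10 or more, in percent on an axis that is linear up to 1% and logarithmic above, for each library and gate, with exact 95% binomial intervals for counting error. The NO2-OA library is lowest in each class shown, at 0.530% of the B gate and 0.652% of the T gate.

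Barcodes outside the lymphocyte gates were read in the same way. In the monocyte gate, set by Csf1r, the receptor of the growth factor M-CSF, 14.03% and 12.8% of barcodes reached a platelet sum of 10 for chow, 8.23% and 45.0% for HFD + L-NAME and 4.33% for NO2-OA. Barcodes that reached this sum without macrophage genes were 4.75% of the whole monocyte gate in the second chow library and 12.4% in the second HFD + L-NAME library. Here the macrophage-gene barcodes stayed in the total, whereas the B-gate and T-gate shares above left them out of it. In the natural killer gate, set by the receptor gene Ncr1, the shares were 3.48% and 1.48%, 2.17% and 15.8%, and 0.553%. Barcodes with both Cd79a and Cd3e, which the rule left out, reached a sum of 10 in 6.03% and 4.81%, 6.57% and 10.8%, and 1.09% of cases.

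The share of carriers did not differ between chow and HFD + L-NAME beyond the spread of the libraries. The log2 ratio of the mean shares was 0.40 in the B gate and 0.25 in the T gate, or 0.37 and 0.22 without macrophage-gene barcodes, with an exact two-sided permutation p of 0.667 in each, and 2 libraries against 2 cannot give a p below 0.33. The ratio had opposite signs by replicate number, at -0.26 between the first libraries and 1.04 between the second in the B gate, and at -0.54 and 1.15 in the T gate. With a threshold of 5 counts it turned to -0.23 in the B gate and -0.41 in the T gate. With 1 NO2-OA library, no share was tested against it.

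No difference between B and T lymphocytes was detected in how often they carried platelet counts. The log2 ratio of the B share to the T share averaged 0.04 ± 0.26 (SD, n = 5 libraries), was above 0 in 3 of 5 libraries and had an exact sign-flip permutation p of 0.75, where 0.0625 is the smallest possible. Within the T gate, barcodes with Cd8a or Cd8b1 were set against those with Cd4. The shares in Cd4 barcodes were 8.13%, 2.86%, 6.71%, 9.58% and 0.342% in the order above, and those in Cd8 barcodes 7.90%, 3.81%, 4.75%, 5.98% and 0.755%. Their log2 ratio averaged 0.07 ± 0.74 (SD, n = 5), with an exact permutation p of 1.0, and was again 0.07 (exact p 0.938) without macrophage-gene barcodes. Cd8 barcodes were deeper in every library, with median totals of 7734 to 11,367 UMIs against 5725 to 8420 in Cd4 barcodes. With every barcode thinned to 3000 UMIs the ratio was -0.64, below 0 in all 5 libraries, with an exact permutation p of 0.0625. Few thinned barcodes reached the sum in some libraries. They were 3 of 1121 Cd4 and 2 of 1538 Cd8 barcodes for NO2-OA, and 5 of 826 and 6 of 1120 in the second chow library.

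Next, all other genes were compared between carriers and sum-0 barcodes of the same library, with counts summed per library. In these sums, more cells with a transcript and more transcript per cell cannot be told apart. In the B gate 1540 of 12,142 genes passed edgeR's quasi-likelihood test at an adjusted p of 0.05 (12.7%), 1324 higher (10.9%) and 216 lower (1.78%) in carriers. Without the macrophage-gene carriers 1104 of 12,075 passed (9.14%), 1082 higher (8.96%) and 22 lower (0.182%). In the T gate 1176 of 11,257 genes passed (10.4%), 968 higher (8.6%) and 208 lower (1.85%), and 753 of 11,216 (6.71%), 724 higher (6.46%) and 29 lower (0.259%), without the macrophage-gene carriers. Among carriers with a sum of 50 or more, without macrophage genes, 1160 of 11,165 genes (10.4%) passed in the B gate, 1053 higher (9.43%) and 107 lower (0.958%), and 855 of 9931 (8.61%) in the T gate, 759 higher (7.64%) and 96 lower (0.967%). Of the B-gate genes called higher with all carriers, 949 were also called without them (71.7% of the first list and 87.7% of the second), and of those called lower 18 were (8.33% and 81.8%). T-gate lists shared 688 higher genes (71.1% and 95.03%) and 28 lower genes (13.5% and 96.6%). Carriers are richer in platelet RNA by the rule itself, so the counts of platelet lists show what came with the 5 genes and are no independent test. Without predicted doublets 587 genes were higher and 10 lower in the B gate, and 397 and 15 in the T gate. The lower B-gate genes numbered 123 without the first chow library, 21 without the second, and 45 when HFD + L-NAME library 2 was left out. The lower T-gate genes numbered 102 and 77 without the first and the second chow library, and 73 and 86 without the first and the second HFD + L-NAME library. The gene lists below were chosen with results of these data known.

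The platelet lists were higher in carriers almost throughout. Of 20 tested adhesion receptors in the B gate 18 were higher and none lower, with a median log2 difference of 5.35, beside -0.05 over all genes tested. All 15 tested granule and secreted proteins were higher (median 5.42), and so were 27 of 30 genes of signalling, enzymes and the cytoskeleton (median 2.74). In the T gate 17 of 21 receptors (median 4.75), 14 of 14 granule genes (median 5.19) and 29 of 31 signalling genes (median 2.89) were higher. Without the macrophage-gene carriers these counts were 17 of 20, 15 of 15 and 26 of 29 in the B gate and 17 of 21, 15 of 15 and 26 of 31 in the T gate. The share called higher among all genes tested was 10.9% in the B gate and 8.6% in the T gate. Without macrophage genes it was 8.96% and 6.46%.

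Among adhesion genes, Itga6 stood at 78.6 and 27.4 CPM (counts scaled to a common total for each sum) in sum-0 B-gate barcodes for chow, at 33.7 and 33.6 for HFD + L-NAME and at 31.4 in NO2-OA. In B-gate carriers without macrophage genes it stood at 587 and 212, 422 and 209, and 437 CPM, so every carrier sum lay above every sum-0 value. Its log2 difference was 3.60 (SE 0.14, edgeR adjusted p 3.67e-07) with all carriers and 3.28 (SE 0.22) without macrophage genes. Esam, an adhesion molecule of platelets and endothelium, rose by 5.71 (SE 0.29), and F2rl2, the thrombin co-receptor PAR3, by 6.37 (SE 0.34), or by 5.84 and 6.52 without macrophage genes. T-gate sums of Gp1ba, the chain of the von Willebrand factor receptor that binds its ligand, went from 0.132 to 2.06 CPM in sum-0 barcodes to 23.9 to 60.5 CPM in carriers without macrophage genes. This was a log2 difference of 5.90 (SE 0.37, edgeR adjusted p 1.53e-08).

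Granule and secreted proteins include the cargo that platelets release when activated. Vwf, von Willebrand factor, had 3.80, 0.823, 1.67, 1.30 and 0.858 CPM in sum-0 T-gate barcodes, in the order chow, HFD + L-NAME and NO2-OA, and 154, 55.9, 101, 84.1 and 115 CPM in carriers without macrophage genes. In platelets alone it stood at 598 to 792 CPM. Its log2 difference in the T gate was 6.09 (SE 0.22, edgeR adjusted p 3.21e-11), and 6.15 without macrophage genes. Angpt1, the ligand angiopoietin-1, rose by 4.79 (SE 0.17) in the T gate, or by 4.86 without macrophage genes. Pros1, the anticoagulant protein S, rose by 5.36 (SE 0.22) in the B gate and F13a1, the clot-linking factor XIII subunit, by 4.92 (SE 0.19), or by 4.66 without macrophage genes. Pros1 also stood at 151 and 156 CPM in the macrophage-gene carriers of the B gate, and without these its difference was 4.85 (SE 0.25).

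Signalling and transport genes of platelets followed. Rab27b, a small GTPase of granule secretion, had 0.616 to 2.93 CPM in sum-0 B-gate barcodes and 50.4 to 111 CPM in carriers without macrophage genes. It rose by 5.93 (SE 0.22, edgeR adjusted p 1.05e-07) in the B gate and by 5.31 (SE 0.18) in the T gate. Irag1, a target of cyclic GMP-dependent kinase, rose by 4.95 (SE 0.19) in the B gate, Slc6a4, the serotonin transporter, by 6.14 (SE 0.26) in the T gate, and Plek by 2.28 (SE 0.08) in the B gate. Without macrophage genes these were 5.09, 6.21 and 2.09. Ptgs1, cyclooxygenase-1, rose by 5.87 (SE 0.25) and Alox5ap, the 5-lipoxygenase activating protein, by 3.70 (SE 0.10) in the T gate. For these 2 genes the values without macrophage genes were 5.45 (SE 0.32) and 3.28 (SE 0.32).

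Platelets also keep transcripts of the nuclear factors of their parent cell. Of 10 tested in each gate, 5 were higher, and 1 was lower in the B gate, Mef2c, a factor that B cells use too, by -0.31 (SE 0.09, edgeR adjusted p 0.0484). Without the macrophage-gene carriers 4 of 10 in the B gate and 5 of 10 in the T gate were higher and none lower. Among all genes tested, 10.9% were higher in the B gate and 8.6% in the T gate, or 8.96% and 6.46% without macrophage genes. Lower genes made up 1.78% in the B gate and 1.85% in the T gate, or 0.182% and 0.259%. Nfe2, the factor of late megakaryocyte maturation, rose by 4.40 (SE 0.17) in the B gate and by 4.25 (SE 0.25) in the T gate, and Tal1 by 6.00 (SE 0.38) and 5.10 (SE 0.48). Gata1, the leading factor of the megakaryocyte and red-cell lineages, was at 0 in sum-0 B-gate barcodes of 3 libraries and at 0.185 and 0.0975 CPM in the other two. In B-gate carriers it had 4.58 to 7.61 CPM, without macrophage genes.

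**Figure D3:**
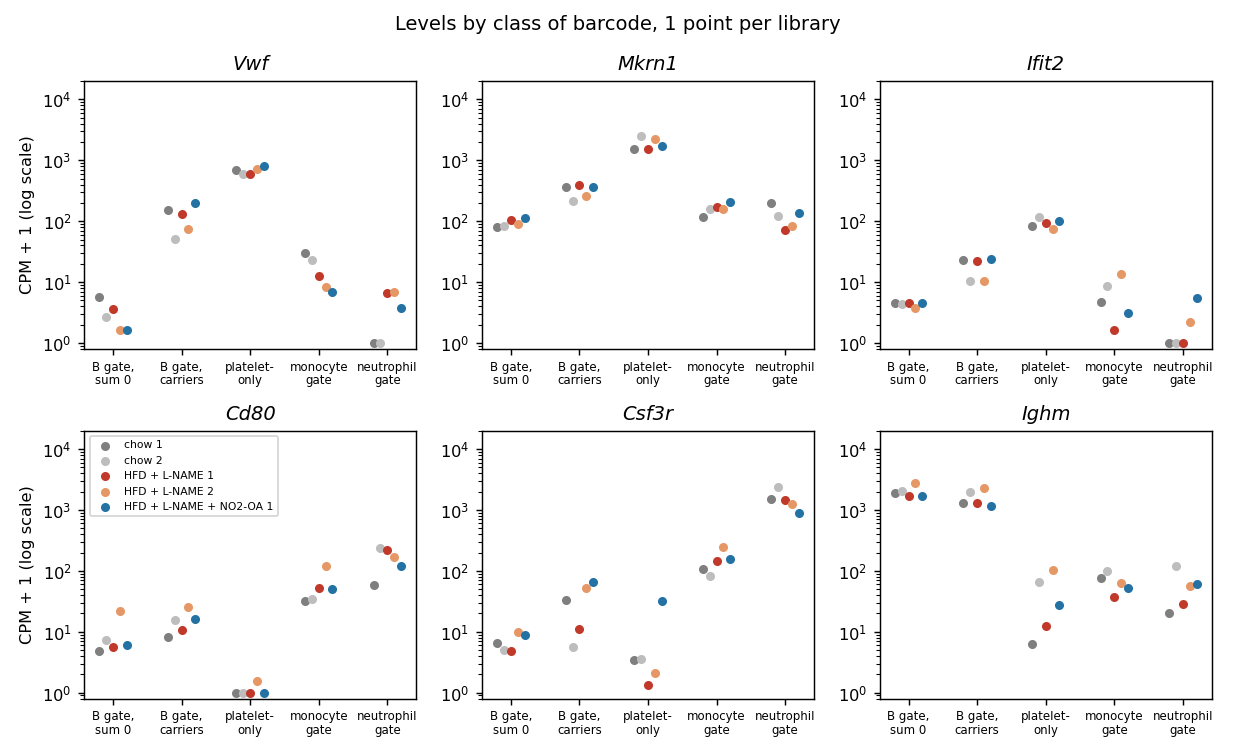
CPM plus 1 on a log axis are shown for 6 genes in the sum-0 barcodes and carriers of the B gate (macrophage-gene barcodes left out), in platelets alone and the monocyte and neutrophil gates, 1 point for each library. Vwf in carriers (50.4 to 202 CPM) lies between sum-0 barcodes (0.616 to 4.80) and platelets alone (598 to 792), while Csf3r is at 0.358 to 2.55 CPM in platelets alone in 4 libraries and at 878 to 2409 CPM in the neutrophil gate.

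Some of the leading genes were high in the macrophage-gene carriers. Serpinb2, an inhibitor of plasminogen activators, was higher in B-gate carriers by 8.18 (SE 0.21, edgeR adjusted p 8.39e-09), but by 3.98 (SE 0.70, adjusted p 0.00875) once they were left out. It stood at 889 and 1646 CPM in the macrophage-gene carriers, at 42.7 to 109 CPM in platelets alone and at 7.35 to 15.2 CPM in the other B-gate carriers. Pmp22, a membrane protein of many tissues, was higher by 7.54 (SE 0.32) with all carriers and had too few counts to be tested without them. Selp, which encodes P-selectin and was named here for that role after its values were seen, was higher by 4.96 (SE 0.82, adjusted p 0.0257) with all carriers of the B gate and by 2.57 (SE 0.32, adjusted p 1.04e-04) without them. Rab27b, the membrane protein gene Tmem40 and Irag1 had differences of 6.08, 5.63 and 5.09 in the B gate without macrophage genes, beside 5.93, 5.49 and 4.95 with them.

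Most B-cell identity genes were lower relative to all counts in B-gate carriers, and most of these calls were lost without the macrophage-gene carriers. With all carriers 17 of 25 tested genes were lower and none higher (median -0.37), beside 1.78% lower over all genes, against 3 lower and none higher (median -0.20) without them, beside 0.182%. None passed in either direction among carriers with a sum of 50 or more without macrophage genes (median -0.36), where 0.958% of 11,165 genes were called lower. Ighm, the heavy chain of IgM, had 1869 and 2066 CPM in sum-0 barcodes of chow, 1725 and 2757 for HFD + L-NAME and 1719 in NO2-OA, and 1321 and 1962, 1321 and 2336, and 1175 in carriers without macrophage genes. It was lower in carriers in all 5 libraries, by -0.39 (SE 0.07, edgeR adjusted p 0.00263), or by -0.23 (adjusted p 0.0278) without macrophage genes. Pou2af1, the B-cell coactivator OBF-1, differed by -0.50 (SE 0.09) and -0.30, and Cd74, the invariant chain of MHC class II, by -0.34 (SE 0.07) and -0.17.

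As counts per barcode, the B-cell genes lay on either side of the sum-0 level. Summed over the 25 genes, sum-0 barcodes held 145 and 217 UMIs for chow, 183 and 314 for HFD + L-NAME and 174 in NO2-OA. Carriers without macrophage genes held 149 and 223, 178 and 260, and 162 UMIs, higher in both chow libraries and lower in the other three. Per 10,000 UMIs of the barcodes the same genes made 246 and 333, 289 and 317, and 276 in sum-0 barcodes, and 194 and 300, 229 and 277, and 178 in carriers, lower in all 5 libraries. Neither scale was tested for the list as a whole. At a platelet sum of 50 or more the B-cell genes held 132 and 112 UMIs for chow, 140 and 199 for HFD + L-NAME and 175 in NO2-OA.

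Some T-cell identity genes were lower as well, and the others did not pass. With all carriers 11 of 24 genes were lower and none higher (median -0.31), beside 1.85% lower over all genes, and without macrophage genes 1 was lower (median -0.23), beside 0.259%. Cd3d, a chain of the T-cell receptor complex, had 255 and 427 CPM for chow, 373 and 393 for HFD + L-NAME and 315 for NO2-OA in sum-0 barcodes, and 192 and 403, 264 and 325, and 207 CPM in carriers without macrophage genes. It was lower in carriers in all 5 libraries, and differed by -0.36 (SE 0.07, edgeR adjusted p 0.00335), or by -0.27 (adjusted p 0.0594) without macrophage genes. Summed over the 24 genes, sum-0 T-gate barcodes held 66.8 and 90.0 UMIs for chow, 69.4 and 105 for HFD + L-NAME and 68.9 in NO2-OA, and carriers 65.8 and 83.3, 70.2 and 98.3, and 63.0. Of 28 cytosolic ribosomal protein genes, 22 were lower in T-gate carriers (median -0.16), 1 without macrophage genes, and none passed in the B gate in either direction.

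**Figure D4:**
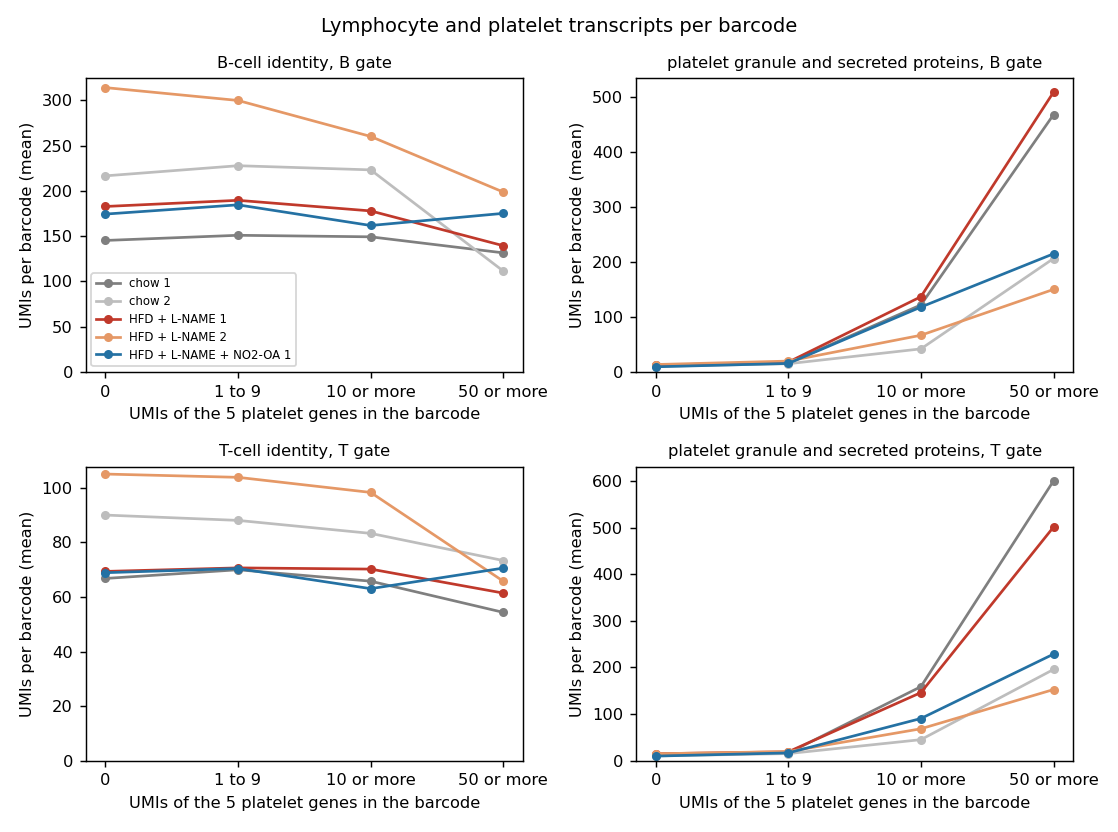
Mean UMIs per barcode of the identity genes of each gate (left) and of the platelet granule genes (right) are plotted against the platelet sum of the barcode, 1 line for each library, with macrophage-gene barcodes left out of the 2 classes of carriers. The granule genes climb with the platelet sum, from 9.61 to 13.8 UMIs at a sum of 0 to 42.2 to 137 in all B-gate carriers, and the identity genes show no such climb.

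Receptors with which lymphocytes adhere and meet platelets came next. Lymphocyte adhesion and platelet-contact receptors were higher for 13 of 27 tested genes in the B gate and lower for 3, or higher for 13 and lower for 1 without macrophage genes. T-gate carriers had 8 of 27 higher and 1 lower, or 11 and none. Over all genes tested, 10.9% were higher and 1.78% lower in the B gate, and 8.6% and 1.85% in the T gate. Without macrophage genes these shares were 8.96% and 0.182%, and 6.46% and 0.259%. Cd44, the receptor of hyaluronan and a marker of antigen-experienced lymphocytes, rose by 1.53 (SE 0.08) in the B gate and by 1.11 (SE 0.09) in the T gate, and by 1.25 and 0.98 without macrophage genes. Cd44 had 144 to 261 CPM in sum-0 barcodes of both gates, 218 to 658 CPM in carriers and 455 to 703 CPM in platelets alone, but over 2000 CPM in every library of the monocyte and neutrophil gates. Cd84, a receptor of the SLAM family, rose by 1.38 (SE 0.12) in the B gate and had 566 to 1004 CPM in platelets alone against 66.2 to 81.5 CPM in sum-0 B-gate barcodes.

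Several genes listed for other cells were high in platelets alone. Mkrn1, an E3 ubiquitin ligase listed for red cells, had 1514 to 2485 CPM in platelets alone. It had 79.6 to 113 CPM in sum-0 B-gate barcodes and 210 to 387 CPM in carriers, a log2 difference of 1.74 (SE 0.19) or 1.85 without macrophage genes. Red-cell markers as a list were higher for 3 of 13 genes in the B gate and 4 of 12 in the T gate and lower for none, with and without macrophage genes. Over all genes tested, 10.9% and 8.6% were higher in the B and the T gate, or 8.96% and 6.46% without macrophage genes. The summed level of the red-cell markers in B-gate carriers was 4.42 to 154 UMIs per 10,000, in the range of sum-0 barcodes (7.63 to 159) except in the second chow library. The T-gate values were 4.50 to 380 in carriers and 1.82 to 142 in sum-0 barcodes, and among carriers highest in the second HFD + L-NAME library. Lat, an adaptor of T-cell receptor signalling that platelets use too, was higher in the B gate by 2.36 (SE 0.27), with 63.0 to 123 CPM in platelets alone. Cd93, a receptor of immature B cells, was higher by 2.03 (SE 0.23) in the B gate and by 4.17 (SE 0.29) in the T gate, with 67.3 to 121 CPM in platelets alone. Of 12 tested T-cell markers in the B gate and 9 tested B-cell markers in the T gate, none passed in either direction, and none of 11 and 9 did without macrophage genes.

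Interferon-stimulated genes, a readout of antiviral signalling, were higher for 7 of 26 tested genes in B-gate carriers and lower for none, and for 5 of 25 without macrophage genes. Over all genes tested in the B gate, 10.9% were higher with all carriers and 8.96% without macrophage genes. Ifit2, which binds viral RNA, had 2.77 to 3.60 CPM in sum-0 B-gate barcodes, 9.46 to 22.8 CPM in carriers and 74.1 to 115 CPM in platelets alone. Its log2 difference was 2.12 (SE 0.31, edgeR adjusted p 0.00117), and 2.33 without macrophage genes. Isg15, the ubiquitin-like modifier, rose by 0.73 (SE 0.20, edgeR adjusted p 0.0329), or by 0.79 (adjusted p 0.0088) without macrophage genes. It had only 0 to 13.1 CPM in platelets alone. Its difference was 0.03 (SE 0.50) among carriers with a sum of 50 or more without macrophage genes. A single gene of 25 was higher in the T gate, beside 8.6% of all genes tested there. It was Isg20, an exonuclease gene also listed for red cells, with a difference of 1.04 (SE 0.28).

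Of 28 lymphocyte activation genes in the B gate 4 were higher and 2 lower, beside 10.9% higher and 1.78% lower over all genes tested. Without macrophage genes 1 was higher and none lower, beside 8.96% and 0.182%. That gene, Cd80, the costimulatory ligand of CD28, was higher by 1.55 (SE 0.23) with all carriers and by 0.92 (SE 0.21, edgeR adjusted p 0.0113) without macrophage genes. Cd80 differed by 0.03 (SE 0.55) among carriers with a sum of 50 or more without macrophage genes. It was at 0 in platelets alone in 4 of 5 libraries and had 31.1 to 120 CPM in the monocyte gate. Of 27 tested in the T gate 2 were higher and 1 lower, beside 8.6% and 1.85% of all genes, and 1 was higher and none lower without macrophage genes. AP-1 and immediate-early genes were higher for 1 of 18 and lower for 1 in the B gate, and for 2 and 1 in the T gate. Without macrophage genes 3 were higher and none lower in the B gate (Fosl2, Ier3 and Dusp1, named after their values were seen), and none passed in the T gate. Jund, a subunit of AP-1, differed by -0.25 in the B gate with all carriers and by -0.15 (adjusted p 0.089) without macrophage genes, and Atf3, a stress-induced factor, by 1.58 and 0.93 (adjusted p 0.059) in the T gate. Fos, another AP-1 subunit, differed by 0.31 and 0.08 (adjusted p 0.719) in the T gate. TGF-beta response genes, whose ligand platelets store, were higher for none of 12 and lower for 1 in the B gate, and higher for 1 and lower for 1 of 13 in the T gate. None of them passed in either gate without macrophage genes, where Tgfbr2, a receptor chain for TGF-beta, differed by -0.21 (adjusted p 0.11) in the B gate and Bhlhe40 by 0.26 (adjusted p 0.654) in the T gate, against -0.31 and 0.68 with all carriers.

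Some markers of phagocytes were higher in carriers, and the rest did not pass. Of 13 monocyte markers 6 were higher in B-gate carriers and none lower, or 5 without macrophage genes, and of 11 neutrophil markers 3, or 5. T-gate carriers had 4 of 13 monocyte markers (2 of 12 without macrophage genes) and 4 of 9 neutrophil markers higher, and none lower. Over all genes tested, 10.9% were higher in the B gate and 8.6% in the T gate, or 8.96% and 6.46% without macrophage genes. Among carriers with a sum of 50 or more without macrophage genes, 2 of 12 monocyte and 1 of 8 neutrophil markers were higher in the B gate, and 1 of 10 and 1 of 4 in the T gate. Of all genes tested at this sum, 9.43% were higher in the B gate and 7.64% in the T gate. Cd68, a lysosomal protein of phagocytes, differed by 2.62 in the B gate with all carriers, by 1.16 without macrophage genes and by 0.38 (adjusted p 0.791) at that higher sum. Over the whole monocyte list of 14 genes, sum-0 B-gate barcodes held 2.57 to 5.95 UMIs per 10,000, and carriers without macrophage genes 11.4 to 44.0, in a list that platelets alone held at 27.3 to 44.1. Over the 15 neutrophil genes, sum-0 B-gate barcodes held 0.349 to 16.5 UMIs per 10,000, carriers 0.394 to 122 and platelets alone 0.326 to 29.3. Csf3r, the G-CSF receptor of neutrophils, had 3.75 to 8.99 CPM in sum-0 B-gate barcodes and 4.73 to 64.7 CPM in carriers, but 0.358 to 2.55 CPM in platelets alone in 4 libraries and 31.5 in the NO2-OA library. It rose by 2.69 (SE 0.21, edgeR adjusted p 1.16e-05), and by 2.23 (SE 0.34) without macrophage genes. The part of phagocyte RNA in the lymphocyte barcodes was not tested.

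**Figure D5:**
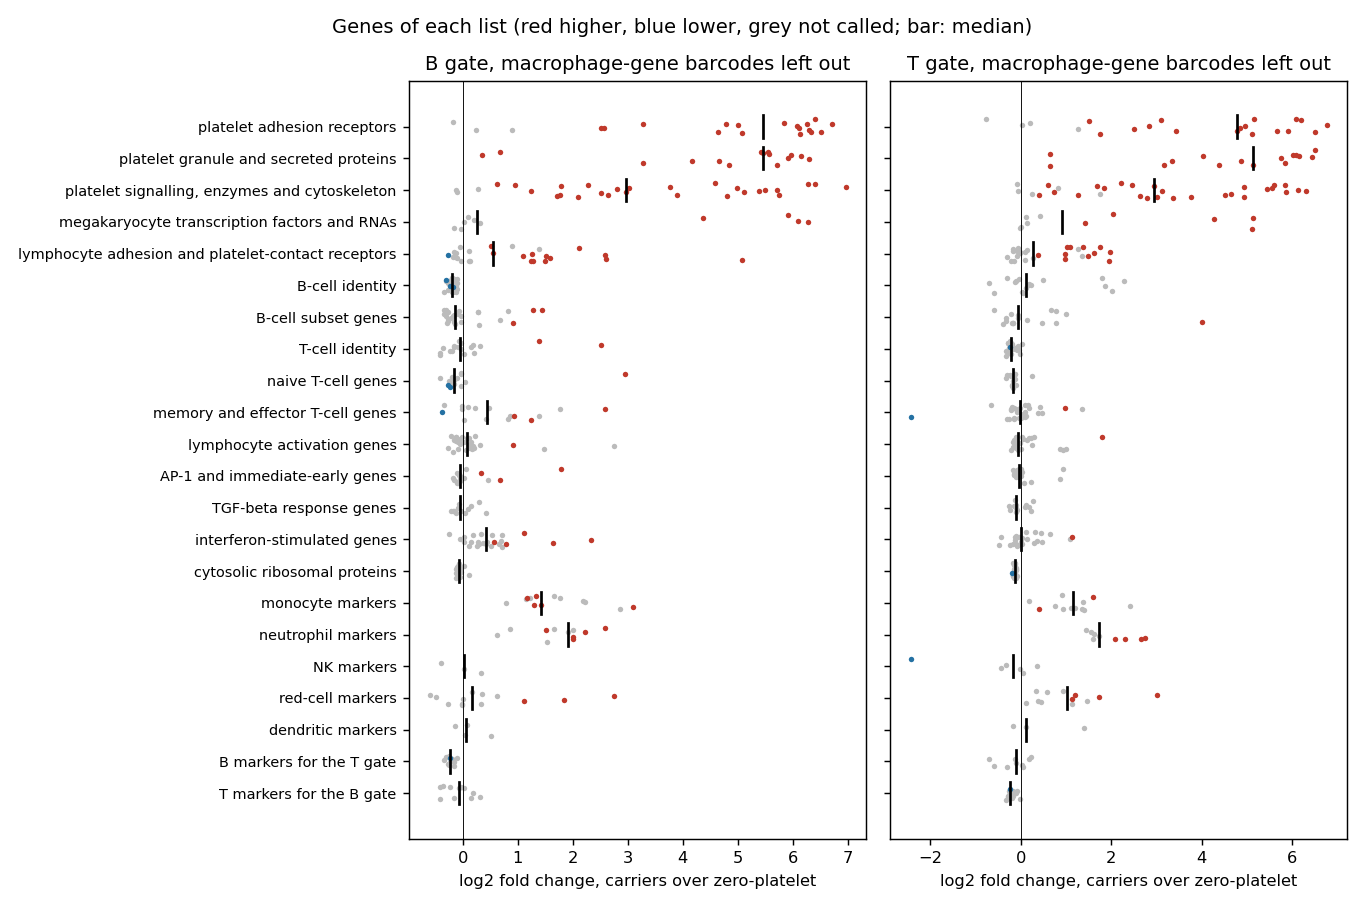
For each gene list and gate, points give the log2 difference of the tested genes between carriers and sum-0 barcodes of the same libraries, macrophage-gene barcodes left out. The 3 platelet lists lie above 0, with medians of 5.46, 5.47 and 2.96 in the B gate, and the B-cell identity list lies near 0, with a median of -0.20.

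Without a replicate block, no gene was called between the HFD + L-NAME and the chow carriers. In the B gate 0 of 12,718 genes passed edgeR's quasi-likelihood test (0%), with 73 at an unadjusted p under 0.05, and DESeq2 called 0. Of T-gate genes 0 of 9911 passed (0%), with 138 at an unadjusted p under 0.05, and DESeq2 called 1 lower. The adhesion receptors of platelets had a median log2 difference of -0.21 in the B gate and -0.24 in the T gate, the granule genes -0.01 and -0.03, and the B-cell identity genes 0.03 in the B gate. Red-cell markers lay above 0 for 13 of 13 tested genes in the B gate (median 1.75) and for 12 of 12 in the T gate (median 1.04), and none passed. T-cell markers lay below 0 for 12 of 12 in the B gate (median -1.21), and none passed. Of all genes tested, 49.2% lay above 0 in each gate, and the direction of a list as a whole was not tested. The part of red-cell and T-cell RNA in the differences of these markers was not tested either. Leaving out the macrophage-gene carriers, again 0 genes passed in both gates, with 224 and 139 at an unadjusted p under 0.05. With the replicate number as a block, 1 gene was higher and 1 lower in the B gate and 9 and 4 in the T gate, and 0 in both gates once the macrophage-gene carriers were left out as well.

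The NO2-OA carriers, 29 in the B gate and 30 in the T gate, were compared with the HFD + L-NAME carriers. These share the HFD + L-NAME libraries with the comparison above, and the lone library was assumed to vary like the others. The B-gate carriers of the NO2-OA library had a median platelet sum of 33, beside 16 and 22 in the HFD + L-NAME libraries. Marked doublets made up 79.3% of them, beside 23.7% and 40.5%. The part of this unlike make-up in the differences below was not tested. No gene passed in the B gate (0%, 749 at an unadjusted p under 0.05, DESeq2 10 higher) or in the T gate (0%, 540 at an unadjusted p under 0.05). With the replicate number as a block, 28 genes were higher and 1 lower in the B gate, and 14 and 2 in the T gate. Without the macrophage-gene carriers and with no block, 3 genes in the B gate and 1 in the T gate were called higher. The platelet adhesion receptors differed by a median of 0.37 and 0.06 in the B and the T gate. B-cell identity genes differed by -0.39 in the B gate (-0.17 over all genes) and T-cell identity genes by -0.52 in the T gate (-0.08 over all genes), and none of either list passed.

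Among the sum-0 barcodes, HFD + L-NAME against chow gave 2 of 15,199 genes in the B gate (0.0132%, both higher) and 0 of 13,631 in the T gate, and NO2-OA against HFD + L-NAME gave 0 and 3 (0.022%, all higher).

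Whether the difference between carriers and sum-0 barcodes itself changed with HFD + L-NAME was tested last. In the B gate 2 of 14,607 genes passed (0.0137%), both lower, and in the T gate 0 of 14,078 (0%, 393 at an unadjusted p under 0.05). S100a8, a subunit of calprotectin and the leading neutrophil gene, changed by -2.79 (SE 0.17, edgeR adjusted p 0.00176). Its sum-0 levels were 34.6 and 0.867 CPM for chow, 166 and 412 for HFD + L-NAME and 524 in NO2-OA, and its carrier levels 348 and 9.78, 242 and 629, and 4291 CPM. Carriers were thus higher in every library, and the ratio was larger in both chow libraries than in both HFD + L-NAME libraries. The 15 neutrophil markers had a median of -2.59 in this test, with 1 above 0, beside 49.6% of all genes tested. The 14 other than S100a8 did not pass, and the list as a whole was not tested. Retnla, a secreted product of alternatively activated macrophages, changed by -6.22 (SE 0.37, adjusted p 0.0125) and was at 0 in 3 of the 5 libraries. In the second chow library it had 3.76 CPM in sum-0 barcodes and 298 in carriers, and in the second HFD + L-NAME library 33.4 and 34.99 CPM. Among the macrophage-gene carriers of the B gate Retnla had 911 and 93.5 unscaled CPM, and among the other carriers 3.15 and 3.17 CPM in those libraries. The B-gate calls numbered 0 without the second chow library, 1 without the first chow or the NO2-OA library, and 7 when HFD + L-NAME library 2 was left out. Fits of the T gate without 1 library called 0 to 4 genes higher and 0 to 20 lower, with 20 lower when the second HFD + L-NAME library was left out.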

How the data were processed

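The deposited files hold UMI counts per gene and barcode, 1 matrix a library, from Cell Ranger 7.1.0 per the file headers. The build mm39 and bcl2fastq come from the submitters' processing notes, and the annotation release is not given in the sources used here. Gates and platelet sums were read on raw counts. Counts were summed per library, gate and class, the 7 genes of the rule were left out, and the sums were tested with edgeR 4.0.16 (quasi-likelihood, robust, filterByExpr, TMM, Benjamini-Hochberg at 0.05) in R 4.3.3. Carriers and sum-0 barcodes were compared with library as a block, and groups with all 5 libraries in the fit. DESeq2 1.42.0 was an alternative, scrublet was run in scanpy 1.11.5, and shares were compared by exact permutation. CPM by class are unscaled, and those of S100a8, Retnla and fold changes are TMM-scaled. In simulated counts the carrier test recovered 98% to 100% of changed genes, and the HFD + L-NAME test in the B gate 70% at a log2 change of 1 and 99% at 2. False calls numbered 8 in the B gate and 9 in the T gate for the carrier test, and 9 and 13 for the HFD + L-NAME test. Apart from the planted changes, the simulated counts of both tests varied by a fixed spread. In the carrier test both sums of a library also shared a simulated library effect. Only genes with enough expected counts were changed. How many real changes of this size either test would call was thus not measured. Genes were named as up to 12 each way per gate by smallest p, up to 4 each way for other tests, and up to 4 per list. Some named genes are not reported here. The members and the gene lists were chosen with earlier results of these data known.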

Additional observations from a re-analysis of the deposited data

Results flagged for a closer look

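In the B gate, 2 genes had a carrier difference that itself differed between HFD + L-NAME and chow by the interaction term in edgeR. S100a8 changed by -2.79 (adjusted p 0.00176). Retnla changed by -6.22 (adjusted p 0.0125). Among carriers with a platelet sum of 50 or more and without macrophage genes, the change of S100a8 was 2.06, and without the second chow library that of Retnla was 0.11, a value that carries no information since the other chow library had no count of it.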

How the results depend on the processing

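Of 382 recomputed counts and shares 269 were labelled the same. For a gene count this meant an equal number or one within a set fold limit. For a share ratio it meant only the same sign, whatever its size. Of 3421 values of named genes 2862 kept direction and call, 552 lost the call and 7 reversed. The threshold of 50, leaving out macrophage-gene barcodes, leaving Pf4 out of the sum and sums of 1 to 9 as the comparison were chosen after seeing the data. For shares, the cause of each move was not tested. HFD + L-NAME against chow was 0.403 in the B gate, -0.233 at a sum of 5, and -0.002 to 0.722 leaving out single libraries. In the T gate it was 0.246, -0.406 at a sum of 5, -0.001 without Pf4, and -0.183 to 0.86 leaving out libraries. B against T was 0.037, -0.033 at 5% mitochondrial counts, -0.083 without doublets, -0.049 with a gate of 2, -0.138 at 50 without macrophage genes, and -0.031 to 0.121 leaving out libraries. Cd8 against Cd4 was 0.068, -0.187 at 5, -0.034 at 5% mitochondrial counts, -0.097 with a gate of 2, -0.641 thinned to 3000, and -0.201 to 0.255 leaving out libraries, and could not be computed at 50, with a library at 0.

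B-gate genes lower in carriers numbered 216, and 575 at a sum of 5, 706 at 20, 101 at 50, 360 at 500 genes, 10 without doublets, 605 matched in depth, 61 against sums of 1 to 9, 22 without macrophage genes, 107 at 50 without them, 388 in DESeq2, 381 with its size factors, 936 unfiltered, 16 without library block and 21 to 219 leaving out libraries. Those higher numbered 1324, 781 at 50, 587 without doublets and 947 to 1300 leaving out libraries. T-gate genes lower numbered 208, and 74 at 20, 15 without doublets, 103 with a gate of 2, 351 matched in depth, 108 against 1 to 9, 29 without macrophage genes, 53 without Pf4, 96 at 50 without macrophage genes, 666 unfiltered, 8 without library block and 73 to 165 leaving out libraries. Those higher numbered 968, 631 at 50, 397 without doublets and 736 to 906 leaving out libraries.

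For HFD + L-NAME against chow in carriers, with 0 calls, the replicate block gave 1 higher and 1 lower in the B gate and 9 and 4 in the T gate, and 0 without macrophage genes. Same-numbered libraries deviated together (r 0.715 over genes in the B gate and 0.244 in the T gate), and the deposited files carry a set name that runs with the number, whose meaning the labels do not give. Macrophage-gene barcodes numbered 137 and 325 in the second chow and HFD + L-NAME libraries and 0 to 2 in the others. Unfiltered there were 20 and 14 in the B gate and 2 and 2 in the T gate, with 1 lower at 5 in the B gate. The T gate had 11 higher at 50 without macrophage genes, 1 lower in DESeq2, and 0 to 3 higher and 0 to 1 lower leaving out libraries. For NO2-OA the block gave 28 higher and 1 lower in the B gate and 14 and 2 in the T gate. In the B gate 1 was higher at 5, 3 without macrophage genes, 2 without Pf4, 9 at 50 without macrophage genes, 10 in DESeq2 and 74 unfiltered, with 99 lower unfiltered. In the T gate 1 was higher without macrophage genes, 5 at 50 without them and 12 unfiltered, with 1 lower at 50 and 5 lower unfiltered.

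For the change of the carrier difference in the B gate, with 2 lower, there were 1 at 5, 0 at 20, at 50, without doublets and with a gate of 2, 1 without macrophage genes, 4 without Pf4, 1 at 50 without macrophage genes, 1 in DESeq2, 21 unfiltered and 0 to 7 leaving out libraries, and 3, 4 and 10 higher without Pf4, at 50 without macrophage genes and unfiltered. In the T gate 2 and 7 were higher without Pf4 and at 50 without macrophage genes and 0 to 4 leaving out libraries, and 4 lower at 50, 2 without doublets, 1 with a gate of 2, 5 without Pf4, 3 at 50 without macrophage genes, 5 unfiltered and 0 to 20 leaving out libraries. The reversed genes were, in carriers, Treml4 (-0.113 at 50 with macrophage genes kept), Nr4a2 (-0.132), Pim1 (-0.015) and Adgre4 (-0.304) at 50 without macrophage genes, and Ccr2 in the T gate (-0.534 at 50), and, in the change, S100a8 (2.057 at 50 without macrophage genes) and Retnla (0.107 without the second chow library, and -6.296 to 0.107 leaving out single libraries).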
